A study of Mus musculus with 30 samples.

Results

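The Hox genes are the homeobox transcription factors that vertebrates carry in 4 clusters, HoxA to HoxD. They were taken here as every protein-coding gene whose symbol is Hox, a cluster letter and a paralog number. All 39 such genes of the mouse annotation (GENCODE M21) were in the table, of 29861 genes in all. The clusters lie on chromosomes 6 (HoxA, 11 genes), 11 (HoxB, 10 genes), 15 (HoxC, 9 genes) and 2 (HoxD, 9 genes) of GRCm38. Along each cluster the genes are numbered from the 3′ end, paralog group 1, to the 5′ end, paralog group 13.

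In the embryo, Hox genes are switched on in the order in which they lie in the cluster, with 3′ genes active towards the head and 5′ genes towards the tail. Polycomb proteins hold the silent genes of a cluster off and Trithorax proteins keep the active ones on. Adult fibroblasts are known to keep a Hox pattern that reflects where in the body they were taken from, and the pattern is often described as positional memory.

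The cells were primary fibroblasts of the line CCG-HTA-1, at passage 4, grown from the tails of mice of the genetically mixed stock UMHet3. Donors were 5 to 8 weeks old per the labels, except that the label of Dihydrorotenone replicate 1 gives 8 to 11 weeks. RNA depleted of ribosomal RNA was sequenced 48 h after addition of 1 of 8 compounds (3 libraries each) or of the solvent DMSO (6 libraries). Levels are TPM, a transcript abundance scaled to transcript length and to the library total, which can be compared between genes.

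The 9 groups shared the line, stock, passage, medium and time and differed in the agent added. Antimycin A and Dihydrorotenone block mitochondrial complexes III and I, and Diphenyleneiodonium Cl inhibits flavoenzymes. Cardamonin is a plant chalcone, BerberineA is named for the plant alkaloid berberine, and Clofilium tosylate blocks potassium channels. AEG 3482 is described as an inhibitor of JNK-dependent cell death, and Podofilox (podophyllotoxin) prevents the assembly of microtubules. Doses were not used here, because the labels do not give them. All libraries came from 1 cell line, so the p-values below measure only the spread between these cultures or libraries. Library numbers in the labels ran consecutively within each group, and an effect of the order of handling cannot be told apart from the group. In bulk RNA, fewer cells that express a gene and less of its RNA per cell also cannot be told apart.

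The label of the cells was checked against marker genes. The summed level of 8 fibroblast markers was 6799 to 8488 TPM in the DMSO libraries. In DMSO the 6 keratinocyte markers summed to 2.19 to 3.06 TPM with Krt5 at 0, the 4 skeletal muscle markers to at most 0.128 TPM with Myod1 at 0, and Cdh5 of endothelium averaged 0.00227 TPM. Of the 8 fibroblast markers, all 8 were lower in Cardamonin (median −1.37), 6 in AEG 3482 (−0.53), 6 in Antimycin A (−0.36), 5 in Podofilox (−0.27) and 3 in each of the other 4 compounds (−0.11 to −0.23), by limma at an adjusted p under 0.05. In each compound but Cardamonin 1 of the 8 was higher. Of all genes tested, 33% were lower in Cardamonin, 26.8% in AEG 3482, 15.5% in Antimycin A and 20% in Podofilox. In the other 4 compounds 9.16% to 12.5% were lower. Over the 8 compounds 4.95% to 41.3% of all genes were higher, and the all-gene medians were −0.03 to 0.10. The 8 fibroblast markers summed to 2829 to 3368 TPM in Cardamonin and to 6246 to 7846 TPM in the other 7 compounds. The melanocyte sum was 4.54 to 6.93 TPM in DMSO, 9.71 to 18.6 TPM in Antimycin A, Dihydrorotenone, Diphenyleneiodonium Cl, BerberineA and Clofilium tosylate, and 1.27 to 2.22 TPM in Cardamonin and AEG 3482. Dct was near 0, so other melanocyte markers, not named here, carried these sums. The endothelial sum was 5.42 to 8.71 TPM in DMSO, mostly from Tek, and 1.09 to 1.77 TPM in Cardamonin and AEG 3482. The immune sum was 21.8 to 26.3 TPM in DMSO, 27.6 to 44.0 TPM in Cardamonin and 16.3 to 21.1 TPM in Antimycin A, Dihydrorotenone, Clofilium tosylate, AEG 3482 and Podofilox. Cd3e was at or near 0, so other immune markers, not named here, carried these sums. The cartilage sum was 3.75 to 6.18 TPM in DMSO and 6.44 to 7.86 TPM in Cardamonin, AEG 3482 and Podofilox. Outside their DMSO ranges were also the keratinocyte sum in Antimycin A (1.61 to 2.08 TPM) and the Schwann cell sum in AEG 3482 (2.71 to 2.77 TPM against 2.99 to 4.91). Krt10, the tested keratinocyte marker, was at 1.76 TPM in DMSO, lower in Antimycin A (−0.28, limma adjusted p = 0.0352) and higher in AEG 3482 (0.24, limma adjusted p = 0.0414). The part of these shifts in the Hox values was not tested.

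The homeoboxes of the 4 genes of paralog group 13, the most 5′ of the clusters, are printed to show how far reads can tell them apart. Each homeobox is the 180 bases that encode the DNA-binding homeodomain, read from the GENCODE M21 transcripts, and the capitals mark the 6 codons (bases 142 to 159) by which it was found.
Hoxa13: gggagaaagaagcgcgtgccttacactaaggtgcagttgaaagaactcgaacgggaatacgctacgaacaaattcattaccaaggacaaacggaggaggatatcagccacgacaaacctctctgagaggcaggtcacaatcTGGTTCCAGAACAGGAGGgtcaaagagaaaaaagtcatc
Hoxb13: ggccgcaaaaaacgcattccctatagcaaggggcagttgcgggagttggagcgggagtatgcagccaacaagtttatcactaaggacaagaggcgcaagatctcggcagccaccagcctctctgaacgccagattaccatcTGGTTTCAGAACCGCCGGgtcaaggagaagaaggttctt
Hoxc13: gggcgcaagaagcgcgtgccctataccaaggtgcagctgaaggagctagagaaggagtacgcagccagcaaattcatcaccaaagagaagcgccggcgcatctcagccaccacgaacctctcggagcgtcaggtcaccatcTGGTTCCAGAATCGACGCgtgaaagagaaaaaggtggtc
Hoxd13: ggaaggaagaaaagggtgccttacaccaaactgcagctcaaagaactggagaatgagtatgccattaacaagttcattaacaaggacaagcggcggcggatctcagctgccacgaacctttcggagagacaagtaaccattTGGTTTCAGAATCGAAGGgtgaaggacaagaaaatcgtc

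Hoxa13 and Hoxc13 were identical at 77.2% of these bases, and Hoxb13 and Hoxd13 at 67.2%. The longest run that any pair of the 4 shared was 9 to 14 bases, well below the 31 bases that kallisto matches. Over all 39 genes the median identity was 80.6% within a paralog group (42 pairs) and 60.6% between groups (699 pairs). Over whole transcripts, none of the 31-base words of Hoxb13, Hoxc12, Hoxc11, Hoxa10, Hoxd12 and Hoxd13 occurred in another annotated gene. The largest overlaps of members that were well expressed were with noncoding transcripts, 52.1% of the words of Hoxb3 and 26.5% of those of Hoxb2 with Hoxb3os, 33.9% of Hoxa11 with Hoxa11os and 19.4% of Hoxa7 with Hoxaas3. These 3 noncoding genes were not in the deposited table and could not be analysed here. The use of strand in counting is not given in the sources used here. Values of Hoxb2, Hoxb3, Hoxa7 and Hoxa11 may therefore include RNA of these partners. Hoxa3, at 1.84 TPM in DMSO, shared 26.0% of its words with other genes, 7.9% with Hoxaas2 and 7.6% with the read-through gene Gm28308. Values of Hoxa3 may therefore also include RNA of other genes.

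Tail fibroblasts in DMSO expressed the HoxA, HoxB and HoxC clusters and almost none of HoxD. At least 1 TPM was reached by 8 of 11 HoxA, 9 of 10 HoxB and all 9 HoxC genes, and by 0 of 9 HoxD genes. The 39 genes summed to 394 ± 13.9 TPM (SD, n = 6), of which HoxB gave 51.6%, HoxC 25.3%, HoxA 22.9% and HoxD 0.2%. Genes of paralog groups 9 to 13 gave 70.9% of the sum, groups 4 to 8 gave 22.2% and groups 1 to 3 gave 6.9%. The map of mean levels by cluster and paralog group shows this weight towards the 5′ end.

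**Figure D1:**
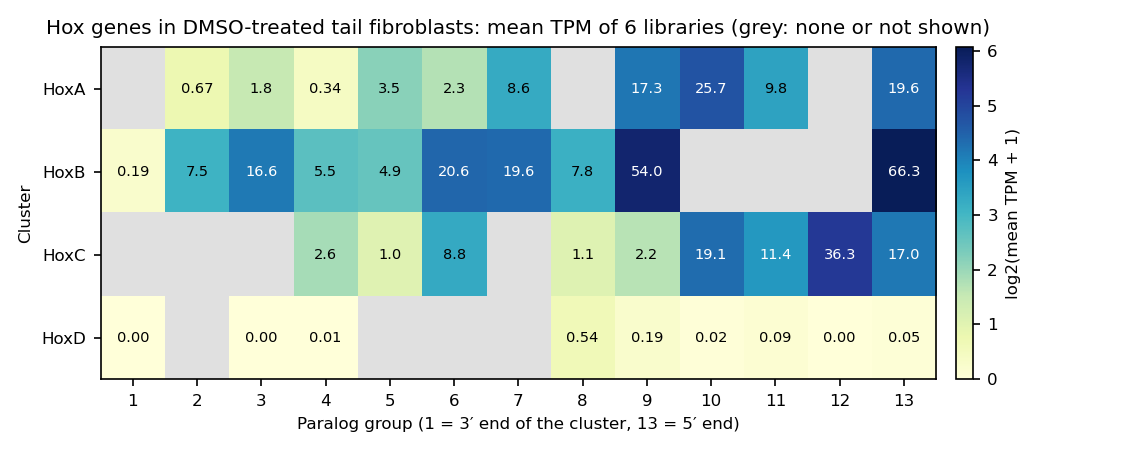
Mean TPM of Hox genes over the 6 DMSO libraries, with the cluster in rows and the paralog group in columns; the colour is log2(mean TPM + 1) and grey cells have no gene or are not shown. The highest cells are Hoxb13 (66.3), Hoxb9 (54.0) and Hoxc12 (36.3), and every cell of the HoxD row is below 1.

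Hoxb13, a gene known from the tail bud and the prostate, had the highest level, with 65.1, 68.3, 64.8, 56.3, 73.2 and 69.9 TPM in DMSO replicates 1 to 6. Hoxb9, which acts in the thoracic skeleton, followed with 50.5 to 56.7 TPM, and its range overlapped that of Hoxb13 through replicate 4 of the latter. Hoxc12 came next at 28.7 to 42.2 TPM, below every Hoxb9 value and above every value of the next gene, Hoxa10 (25.7 ± 2.28 TPM, SD, n = 6).

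From Hoxa10 the levels went down in small steps. Hoxb6, Hoxb7, Hoxa13, Hoxc10, Hoxa9, Hoxc13 and Hoxb3 had means of 20.6 to 16.6 TPM, and each overlapped its neighbour in range. Hoxa13, which patterns digits and the urogenital tract, was at 19.6 ± 0.746 TPM, and Hoxc13, which hair follicles need, at 17.0 ± 1.64 TPM (SD, n = 6 each). Of the 25 steps between neighbours with a mean of at least 1 TPM, 19 had overlapping ranges, so the exact order within these runs is not fixed by the data.

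The weight of the 5′ genes was seen cluster by cluster. Outside HoxD, 9 of the 11 genes of groups 9 to 13 had at least 10 TPM, against 2 of 13 in groups 4 to 8 and 1 of 6 in groups 1 to 3. The exceptions at the 5′ end were Hoxa11 (9.80 TPM) and Hoxc9 (2.18 TPM), which lies between Hoxc8 (1.09 TPM) and Hoxc10 (19.1 TPM). At the 3′ end Hoxb3 (16.6 TPM) stood out, above Hoxb2 (7.52 TPM), Hoxb4 (5.52 TPM) and Hoxb5 (4.93 TPM). The values of Hoxb3 and Hoxb2 may include RNA of Hoxb3os, as given above. Hoxa2, Hoxa4 and Hoxb1 were between 0.189 and 0.671 TPM.

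Within HoxD, Hoxd8 was highest at 0.536 TPM in DMSO. The highest HoxD value in any of the 30 libraries was 1.27 TPM, for Hoxd8 in BerberineA replicate 2, and outside Hoxd8 it was 0.415 TPM. Hoxd1, Hoxd3 and Hoxd12 were listed at 0 in all 30 libraries. TPM carries no depth, so no upper limit is given for them, and 52.6% of the words of Hoxd3 are shared with the read-through gene Gm28230, which was itself near 0.

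Hoxa13 and Hoxd13 lie at the 5′ ends of their clusters and stood far apart, at 19.6 and 0.0494 TPM. Their RefSeq promoters (GRCm38.p6, 300 bases around the start) are printed to show the sequence at an active and at a nearly silent group 13 gene, with each CpG in capitals. That of Hoxa13 lies at chr6:52260831-52261130 on the minus strand and that of Hoxd13 at chr2:74667975-74668274 on the plus strand.
Hoxa13: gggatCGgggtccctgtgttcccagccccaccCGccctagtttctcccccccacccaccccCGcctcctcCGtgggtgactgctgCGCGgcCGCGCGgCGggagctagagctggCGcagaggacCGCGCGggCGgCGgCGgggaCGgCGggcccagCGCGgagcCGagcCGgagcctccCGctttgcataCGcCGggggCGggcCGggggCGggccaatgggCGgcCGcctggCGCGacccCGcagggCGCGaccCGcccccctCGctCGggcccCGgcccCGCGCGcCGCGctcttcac
Hoxd13: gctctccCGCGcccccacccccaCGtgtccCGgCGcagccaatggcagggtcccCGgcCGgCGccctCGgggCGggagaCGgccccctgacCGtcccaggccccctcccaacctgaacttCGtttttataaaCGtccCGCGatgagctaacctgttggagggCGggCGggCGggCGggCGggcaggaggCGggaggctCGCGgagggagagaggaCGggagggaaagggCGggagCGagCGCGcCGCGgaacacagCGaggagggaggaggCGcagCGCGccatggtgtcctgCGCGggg

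Both were rich in CpG, with 45 and 37 of them and 81.0% and 74.3% G and C, while the median was 7 CpG over all 32851 promoters of the reference table and 14.5 over the 24 Hox promoters, which covered 22 of the 39 genes. The letters TATAAA, searched on both strands, occurred in that of Hoxd13 and not in that of Hoxa13. They were in 4 of the 24 Hox promoters and in 13.6% of all promoters. CCAAT occurred in 15 of the 24 and in 37.4% of all. TGACNNNGC, the core of the site bound by the stress factor NRF2, was in 2 of the 24, those of Hoxa6 and Hoxd10, and in 12.4% of all. These matches describe letters only.

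Each compound was compared with DMSO by limma on log2(TPM + 1), with Benjamini-Hochberg adjusted p below 0.05 as the threshold. Genes were tested if 3 or more libraries had 1 TPM or more, which 27 of the 39 members reached and 12 did not. Those 27 were 8 HoxA, 9 HoxB and 9 HoxC genes and Hoxd8, which reached 1 TPM in only 3 libraries. All differences are given on the log2(TPM + 1) scale, which understates changes of low genes. The 8 comparisons share the same 6 DMSO libraries and are therefore not independent of each other. The limma F test over the 9 groups called 24 of the 27, where 86.3% of the 13644 genes tested were called. Hoxa10 (adjusted p = 0.10), Hoxb5 (0.82) and Hoxc8 (0.055) were not called by it.

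Cardamonin had the most calls. Of the 27 members 21 passed, 17 lower and 4 higher, while 70.3% of all genes passed, 33% lower and 37.3% higher. The median difference of the members was −0.40 against 0.03 for all genes tested. AEG 3482 followed with 18 members, 12 lower and 6 higher (68.1% of all genes, 26.8% lower and 41.3% higher), and a median of −0.21 against 0.10. Podofilox had 12, 9 lower and 3 higher (46.2% of all genes, 20% lower and 26.2% higher), with a median of −0.19 against 0.04. The members that passed were 77.8%, 66.7% and 44.4% of the 27 in these 3 compounds, near the shares of all genes, and lower calls outnumbered higher ones.

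The other 5 compounds had fewer calls. Antimycin A had 10, 4 higher and 6 lower, where 37.3% of all genes passed, 21.8% higher and 15.5% lower. Diphenyleneiodonium Cl had 8, 5 higher and 3 lower (25.7% of all genes, 14% higher and 11.7% lower), and 5 without any 1 of its 3 replicates. BerberineA had 6, 4 higher and 2 lower (21.7%, 12.6% higher and 9.16% lower), and 3 without its replicate 2. Clofilium tosylate had 6, 4 higher and 2 lower (23.4%, 10.9% higher and 12.5% lower). Dihydrorotenone had 3, 1 higher and 2 lower (14.4%, 4.95% higher and 9.43% lower). These became 0 without its replicate 1, whose label gives another donor age, and 1 without its replicate 2 or without DMSO replicate 3. All libraries came from 1 line, and whether this age label is correct is not known. Medians of the members in these 5 lay between −0.13 and 0.02. Quantile normalization turned the split of Antimycin A to 3 higher and 10 lower, of Diphenyleneiodonium Cl to 4 and 5, of BerberineA to 3 and 3 and of Dihydrorotenone to 2 and 1.

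**Figure D2:**
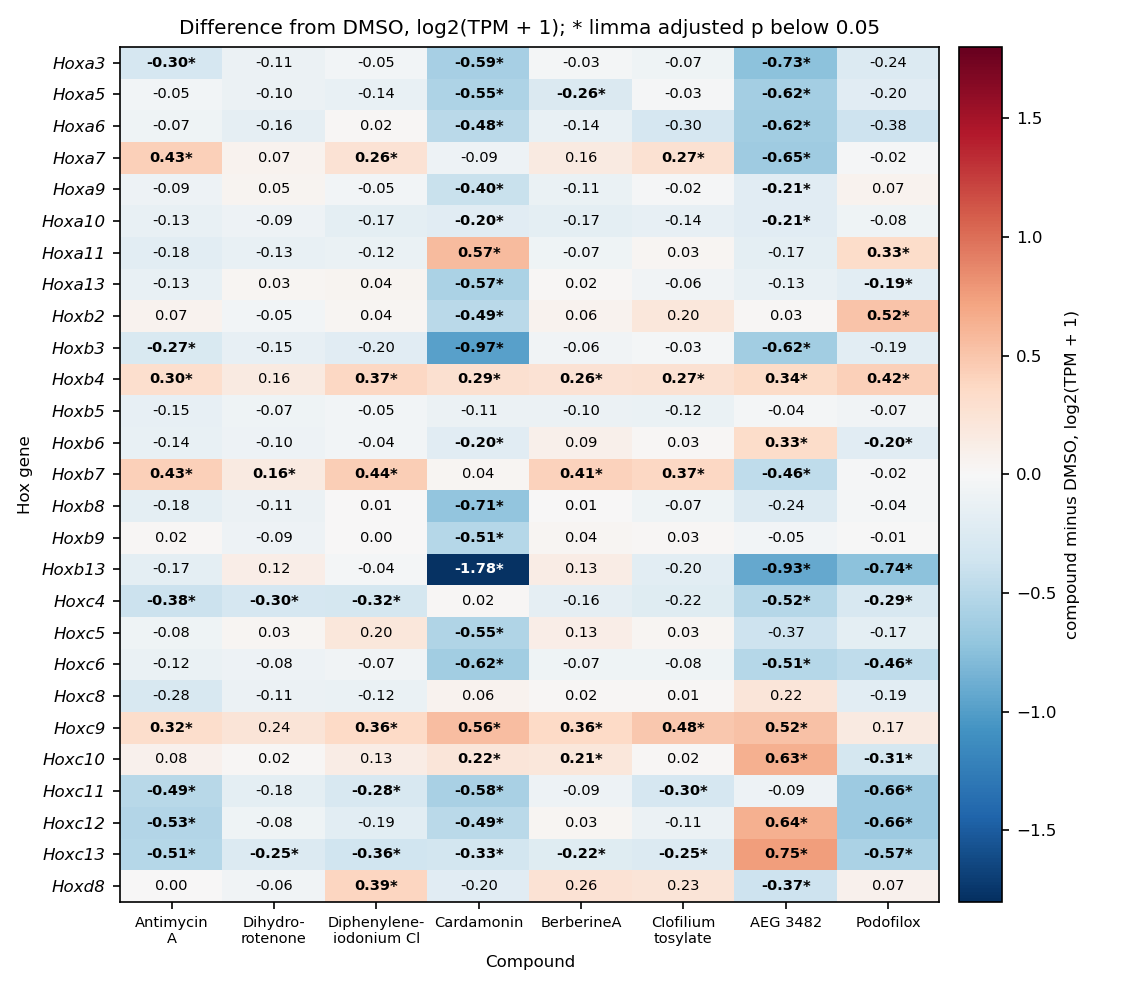
Differences from DMSO on the log2(TPM + 1) scale for the 27 Hox genes tested (vertical axis) in the 8 compounds (horizontal axis), red for higher and blue for lower, with an asterisk where the limma adjusted p is below 0.05. The darkest cell is Hoxb13 in Cardamonin (−1.78), and the Hoxc13 cell is blue in 7 compounds and red in AEG 3482 (0.75).

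Among the genes of groups 12 and 13, Hoxb13 had the largest difference of any member. Its level was 18.8, 20.3 and 16.5 TPM in Cardamonin, 35.1, 33.2 and 34.5 TPM in AEG 3482 and 37.3, 39.5 and 41.1 TPM in Podofilox, against 56.3 to 73.2 TPM in DMSO. Every library of these 3 compounds was below every DMSO library. Hoxb13 fell by 1.78 ± 0.08 in Cardamonin (log2, SE; limma adjusted p = 3.6e-16), to 0.28 of the DMSO mean in TPM. It fell by 0.93 ± 0.08 in AEG 3482 (limma adjusted p = 2.65e-10) and by 0.74 ± 0.08 in Podofilox (limma adjusted p = 4.87e-08). Set against each other directly, Hoxb13 was lower in Cardamonin than in AEG 3482 by 0.86 ± 0.09 (limma adjusted p = 2.69e-08), where 55.3% of all genes passed. AEG 3482 and Podofilox differed by −0.19 ± 0.09, which did not pass (limma adjusted p = 0.0871). In the other 5 compounds the Hoxb13 difference was −0.20 to 0.13 and did not pass in any.

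Hoxc13 took another course. Its level was 30.3, 28.6 and 28.6 TPM in AEG 3482, above every DMSO library (14.8 to 19.5 TPM). Hoxc13 rose by 0.75 ± 0.07 there (limma adjusted p = 4.37e-10) and was lower than in DMSO in each of the other 7 compounds, by 0.22 to 0.57. The lowest levels were in Podofilox (11.3, 10.5 and 11.5 TPM) and Antimycin A (12.5, 11.3 and 10.9 TPM), all below the DMSO range. In Cardamonin the 3 libraries had 13.5, 12.8 and 13.6 TPM, also below it. The calls in Dihydrorotenone (limma adjusted p = 0.0145) and BerberineA (0.0213) were lost when 1 library was left out, for Dihydrorotenone its replicate 1 (limma adjusted p up to 0.193 over the alternatives) and for BerberineA its replicate 2 or 3 or DMSO replicate 5 (up to 0.0909).

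The ratio of Hoxc13 to Hoxb13 within a library set these courses beside each other. It was 0.26 ± 0.01 in DMSO (SD, n = 6), 0.85 ± 0.02 in AEG 3482 and 0.72 ± 0.10 in Cardamonin (SD, n = 3 each), with means of 0.20 to 0.28 in the other 6 compounds. In AEG 3482 both genes had changed, in opposite directions, and in Cardamonin both were lower and Hoxb13 by more.

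Hoxc12, the neighbour of Hoxc13, had 54.8, 61.5 and 54.9 TPM in AEG 3482 against 28.7 to 42.2 TPM in DMSO, with no overlap. Hoxc12 rose by 0.64 ± 0.11 there (limma adjusted p = 6.51e-06). It was lower in Podofilox (25.3, 23.3 and 19.3 TPM, fell by 0.66), in Antimycin A (26.2, 20.9 and 27.5 TPM, fell by 0.53) and in Cardamonin (24.1, 25.2 and 27.1 TPM, fell by 0.49). These 9 libraries all lay below the lowest DMSO library. In the direct contrast Hoxc12 was lower in Cardamonin than in AEG 3482 by 1.13 ± 0.12 and Hoxc13 by 1.08 ± 0.08 (limma adjusted p = 1.57e-08 and 2.03e-11).

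Hoxa13, the third group 13 gene with a clear level, fell by 0.57 in Cardamonin, where the libraries had 12.6, 14.5 and 11.8 TPM against 18.5 to 20.3 in DMSO (limma adjusted p = 5.92e-08). Its difference of −0.19 in Podofilox passed (limma adjusted p = 0.025) but not without Podofilox replicate 2 (up to 0.153 over the alternatives). In AEG 3482 it was −0.13 and did not pass (limma adjusted p = 0.0998). The 3 expressed group 13 genes were thus all lower in Cardamonin, while in AEG 3482 1 was lower, 1 was higher and 1 did not pass. With median-ratio scaling 18 members were lower in AEG 3482, against 12 here, so which genes are not called there depends on the scaling.

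**Figure D3:**
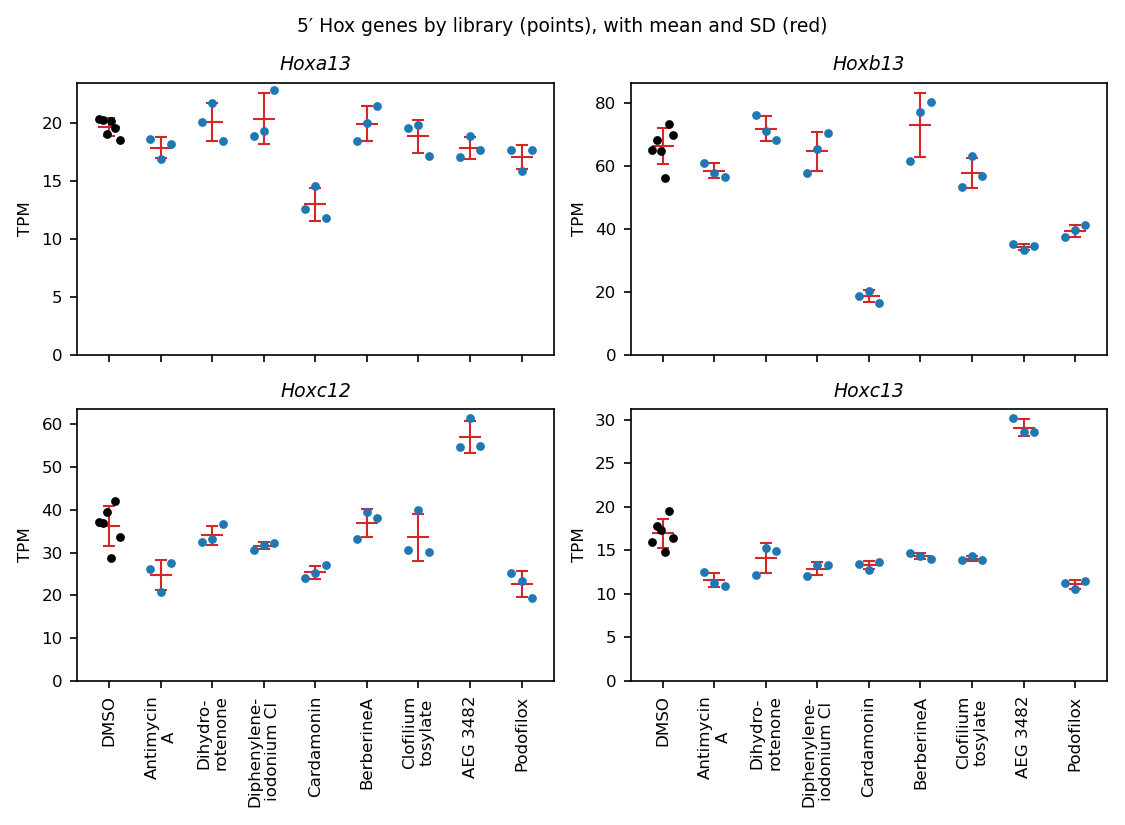
TPM of Hoxa13, Hoxb13, Hoxc12 and Hoxc13 in every library, by group (DMSO in black, compounds in blue), with the mean and SD in red. Hoxb13 stands at 16.5 to 20.3 in Cardamonin against 56.3 to 73.2 in DMSO, and Hoxc12 and Hoxc13 stand highest in AEG 3482.

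In groups 9 to 11 the differences of the 7 tested genes lay between −0.66 and 0.63. Hoxc10, which is known from hindlimb and lumbar patterning, had 32.1, 28.8 and 29.3 TPM in AEG 3482 against 17.0 to 20.8 in DMSO and rose by 0.63 (limma adjusted p = 9.2e-10). It rose by 0.22 in Cardamonin (limma adjusted p = 0.0019) and fell by 0.31 in Podofilox (limma adjusted p = 0.000125), where its 15.6, 14.5 and 15.3 TPM lay below the DMSO range. Its rise of 0.21 in BerberineA (limma adjusted p = 0.0133) was lost without BerberineA replicate 3. Up to 7.3% of its words are shared with Hoxc5, which was at 1.05 TPM in DMSO.

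Hoxc11 was lower in 5 compounds, by 0.66 with Podofilox, 0.58 with Cardamonin, 0.49 with Antimycin A, 0.28 with Diphenyleneiodonium Cl and 0.30 with Clofilium tosylate. In Podofilox its libraries had 8.12, 6.17 and 6.25 TPM and in Cardamonin 6.56, 7.69 and 7.56 TPM, all below the DMSO range of 9.76 to 12.7. The call in Clofilium tosylate was lost without its replicate 3, and that in Diphenyleneiodonium Cl without its replicate 2 or 3. In AEG 3482 Hoxc11 had 10.8, 9.75 and 11.1 TPM and a difference of −0.09 that did not pass (limma adjusted p = 0.336), so between Hoxc10 and Hoxc12, both higher there, lay a gene that was not called.

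Hoxa11 was the HoxA gene that went up in Cardamonin, with 14.8, 14.6 and 15.7 TPM against 8.80 to 10.4 in DMSO (log2 difference 0.57, limma adjusted p = 8.57e-07). It was also higher in Podofilox, at 13.5, 12.9 and 11.4 TPM (0.33, limma adjusted p = 0.00163). All 6 of these libraries were above every DMSO library. Hoxa11 shares words with Hoxa11os, as given above, and the part of that transcript was not tested.

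Hoxb9 passed in Cardamonin alone among the 8, with 36.5, 39.2 and 37.1 TPM against 50.5 to 56.7 in DMSO (fell by 0.51, limma adjusted p = 4.39e-11). Its differences elsewhere were −0.09 to 0.04. Hoxa9 fell by 0.40 in Cardamonin (limma adjusted p = 0.000223). Its −0.21 in AEG 3482 (limma adjusted p = 0.0378) was lost without AEG 3482 replicate 1, DMSO replicate 4 or DMSO replicate 6 (up to 0.422 over the alternatives). Hoxa10 was lower by 0.20 in Cardamonin and 0.21 in AEG 3482, each lost without replicate 3 of that compound.

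Hoxc9, the low gene among the 5′ HoxC genes, was higher in 6 compounds, by 0.32 to 0.56. The Cardamonin libraries had 3.71, 3.52 and 3.66 TPM and those of AEG 3482 2.80, 4.10 and 3.69 TPM, against 1.62 to 3.10 in DMSO, so AEG 3482 overlapped DMSO. Differences in Cardamonin (0.56, limma adjusted p = 0.000223) and AEG 3482 (0.52, limma adjusted p = 0.000544) passed in every alternative. The calls in Antimycin A, BerberineA and Diphenyleneiodonium Cl were each lost without any 1 of several libraries, DMSO replicates 2, 3 and 4 among them, and that in Clofilium tosylate without its replicate 2.

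Among the genes of the middle of the clusters, groups 4 to 8, Hoxb7 and Hoxa7 went up with several compounds and down with AEG 3482. Hoxb7 had 26.9, 27.6 and 25.5 TPM in Antimycin A, 26.6, 27.3 and 26.8 TPM in Diphenyleneiodonium Cl and 26.4 TPM in each BerberineA library. The libraries of Clofilium tosylate had 24.7, 26.5 and 25.7 TPM. All 12 were above the DMSO range of 17.3 to 21.1 TPM. The rises were 0.43, 0.44, 0.41 and 0.37 (limma adjusted p = 1.42e-07, 2.11e-07, 8.54e-07 and 3.44e-06). The melanocyte marker sum was above its DMSO range in the same 4 compounds, as given above. It was also above that range in Dihydrorotenone (12.0 to 12.1 TPM), where Hoxb7 rose by 0.16. The part of this sum in the Hoxb7 values was not tested.

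In AEG 3482 Hoxb7 had 14.0, 13.5 and 14.5 TPM, below every DMSO library, and fell by 0.46 (limma adjusted p = 7.32e-09). In Cardamonin (0.04) and Podofilox (−0.02) it did not pass. Its rise of 0.16 in Dihydrorotenone (limma adjusted p = 0.0319) was lost without replicate 1 or 2 of that compound or DMSO replicate 1 or 3. The direct contrast of Antimycin A with Dihydrorotenone was 0.27 ± 0.06 for Hoxb7 (limma adjusted p = 0.00156), where 15.5% of all genes and 6 of the 27 members passed.

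Hoxa7, the HoxA gene of the same paralog group, had 11.6, 11.6 and 12.6 TPM in Antimycin A against 7.40 to 9.28 in DMSO and rose by 0.43 (limma adjusted p = 0.000113). It fell by 0.65 in AEG 3482, where its 4.62, 5.76 and 5.06 TPM were below every DMSO library (limma adjusted p = 8.85e-08). The rises in Clofilium tosylate (0.27) and Diphenyleneiodonium Cl (0.26) were lost when 1 library was left out, replicate 2 of the first or any replicate of the second. Directly against AEG 3482, Cardamonin was higher by 0.55 ± 0.09 in Hoxa7 and by 0.49 ± 0.06 in Hoxb7 (limma adjusted p = 1.37e-05 and 4.68e-08). The homeoboxes of the pair were identical at 85.0% of bases, with a longest shared run of 26, below the 31 bases of a word. Hoxa7 shares words with Hoxaas3, as given above, and the part of that transcript was not tested.

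Hoxb4 was the member that was higher in the most compounds, 7 of 8, by 0.26 to 0.42. Its 3 libraries in Podofilox had 8.30, 7.39 and 7.53 TPM and those in Diphenyleneiodonium Cl 7.68, 6.84 and 7.80 TPM, all above the DMSO range of 4.77 to 5.95. The difference in Dihydrorotenone was 0.16 and did not pass (limma adjusted p = 0.109), and 1 of its libraries, at 5.85 TPM, lay within the DMSO range. In the direct contrasts Dihydrorotenone was lower in Hoxb4 than AEG 3482 by 0.18 (limma adjusted p = 0.0469, where 65.4% of all genes passed) and lower than Podofilox by 0.26 (limma adjusted p = 0.00809, where 45.2% passed). Its other direct contrasts in Hoxb4 are not given here. Against Diphenyleneiodonium Cl, BerberineA and Clofilium tosylate 1 of the 27 members passed in each. The shares of all genes in these 3 contrasts are not given here, so the counts are not read further. Hoxb5, the next gene, passed in none of the 8 comparisons, with differences of −0.15 to −0.04.

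**Figure D4:**
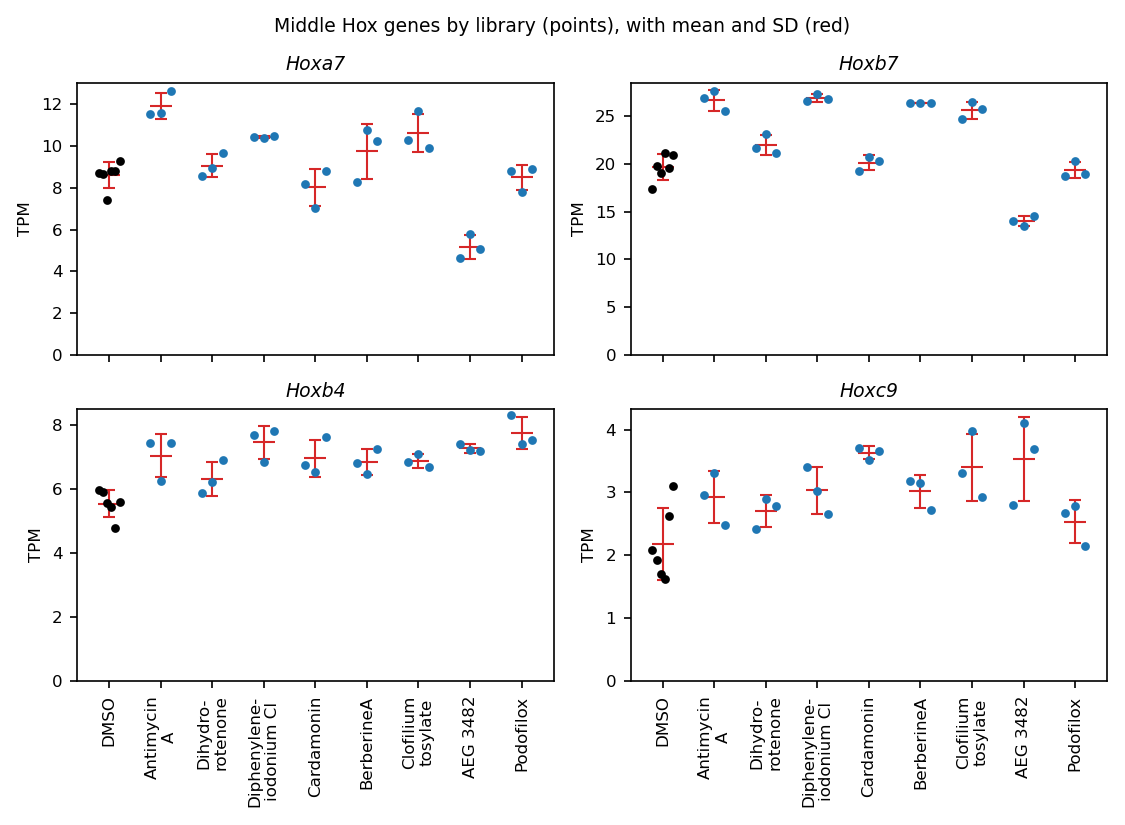
TPM of Hoxa7, Hoxb7, Hoxb4 and Hoxc9 in every library, by group (DMSO in black, compounds in blue), with the mean and SD in red. Hoxb7 stands at 24.7 to 27.6 in BerberineA, Antimycin A, Clofilium tosylate and Diphenyleneiodonium Cl, at 17.3 to 21.1 in DMSO and at 13.5 to 14.5 in AEG 3482.

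Hoxb6, between Hoxb5 and Hoxb7, had 26.0, 26.0 and 26.2 TPM in AEG 3482, above the DMSO range of 18.3 to 24.4, and rose by 0.33 (limma adjusted p = 0.000117). The neighbours Hoxb6 and Hoxb7 thus changed in opposite directions in AEG 3482. Hoxb6 was lower by 0.20 in Cardamonin and in Podofilox, calls that were lost without replicate 1 of either and, for Podofilox, also without replicate 3. Hoxb8 passed in Cardamonin alone, where it fell by 0.71, to 4.49, 4.76 and 3.85 TPM from 7.25 to 8.85 in DMSO (limma adjusted p = 6.96e-06).

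The other middle genes were mostly lower. Hoxa5 fell by 0.55 in Cardamonin and 0.62 in AEG 3482, with all 6 libraries (1.87 to 2.22 TPM) below the DMSO range of 2.90 to 3.82. Hoxa6 fell by 0.48 and 0.62 in the same compounds, and Hoxc6 by 0.62 and 0.51. Hoxc5, at 1.05 TPM in DMSO, fell by 0.55 in Cardamonin, and this call and that of Hoxa6 in Cardamonin were lost with quantile normalization. The fall of Hoxa5 by 0.26 in BerberineA (limma adjusted p = 0.0378) was lost without any 1 of 6 libraries, replicates 1 and 2 of BerberineA and 1, 2, 5 and 6 of DMSO. Hoxc8 passed in none of the 8 comparisons, with differences of −0.28 to 0.22. Hoxc6 also fell by 0.46 in Podofilox (limma adjusted p = 0.00343), a call lost without Podofilox replicate 2. Hoxc4 was lower in 5 compounds, by 0.29 to 0.52, and stood in Cardamonin at 2.57, 2.59 and 2.86 TPM, within the DMSO range of 1.92 to 3.31. Its calls in AEG 3482 and Antimycin A passed in every alternative. Its calls in Podofilox, Diphenyleneiodonium Cl and Dihydrorotenone were each lost without DMSO replicate 2 and without other single libraries.

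At the 3′ end, Hoxb3 had 7.32, 9.12 and 7.47 TPM in Cardamonin and 10.2, 11.1 and 10.0 TPM in AEG 3482, against 14.6 to 19.9 in DMSO. All 6 libraries lay below DMSO, and Hoxb3 fell by 0.97 and 0.62 (limma adjusted p = 1.08e-10 and 4e-07). Its fall of 0.27 in Antimycin A (limma adjusted p = 0.0134) was lost without Antimycin A replicate 2. Hoxa3, its HoxA paralog, fell by 0.59 in Cardamonin and 0.73 in AEG 3482, from 1.54 to 2.34 TPM in DMSO to 0.622 to 0.923 TPM. Its difference of −0.30 in Antimycin A (limma adjusted p = 0.0379) was lost without replicate 1 or 2 of that compound or DMSO replicate 2 or 5. Hoxb3 shares 52.1% of its words with Hoxb3os and Hoxa3 shares words with other genes, as given above. The part of these genes in the values was not tested.

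Hoxb2 went down in Cardamonin and up in Podofilox. It had 4.43, 6.01 and 4.84 TPM in Cardamonin and 11.2, 11.7 and 10.5 TPM in Podofilox, on either side of the DMSO range of 6.83 to 8.56. The differences were −0.49 and 0.52 (limma adjusted p = 0.000121 and 0.00013), and the direct contrast of Cardamonin with Podofilox was −1.0 ± 0.12 (limma adjusted p = 4.19e-08), where 57.8% of all genes passed. Hoxb3 in Podofilox was at −0.19 and did not pass (limma adjusted p = 0.0644). The part of Hoxb3os in the values of Hoxb2 and Hoxb3 was not tested.

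Hoxd8, the tested HoxD gene, was higher by 0.39 in Diphenyleneiodonium Cl (0.895, 1.16 and 0.978 TPM against 0.444 to 0.577 in DMSO), a call lost with a pseudocount of 0.1. It was lower by 0.37 in AEG 3482 (0.258, 0.0294 and 0.301 TPM), a call lost without AEG 3482 replicate 2. It had entered the test through 1 library each of Diphenyleneiodonium Cl, BerberineA and Clofilium tosylate. Every value is near or below 1 TPM, where a log2(TPM + 1) difference is small by construction.

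Summed over clusters, the Hox levels shifted unevenly. The 39 genes summed to 275 to 290 TPM in Cardamonin, 327 to 342 TPM in Podofilox and 352 to 373 TPM in Antimycin A, all below the DMSO range of 375 to 410. The sums of the other 5 compounds overlapped that range, with 372 to 384 TPM in AEG 3482. HoxB fell outside its DMSO range of 191 to 212 TPM in Cardamonin (119 to 130), AEG 3482 (162 to 164) and Podofilox (175 to 176). HoxC was above its DMSO range of 86.7 to 109.3 TPM in AEG 3482 (137.6 to 141.5) and below it in Cardamonin (79.7 to 84.7), Podofilox (64.1 to 74.6) and Antimycin A (74.9 to 81.7). HoxC thus made up 37.1% of Hox TPM in AEG 3482 against 25.3% in DMSO, and HoxB 43.3% and 43.7% in AEG 3482 and Cardamonin against 51.6%. HoxA was below its DMSO range of 86.5 to 95.6 TPM in both Cardamonin (74.2 to 79.2) and AEG 3482 (68.0 to 79.1). These sums are weighted by the few highest genes and were not tested.

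**Figure D5:**
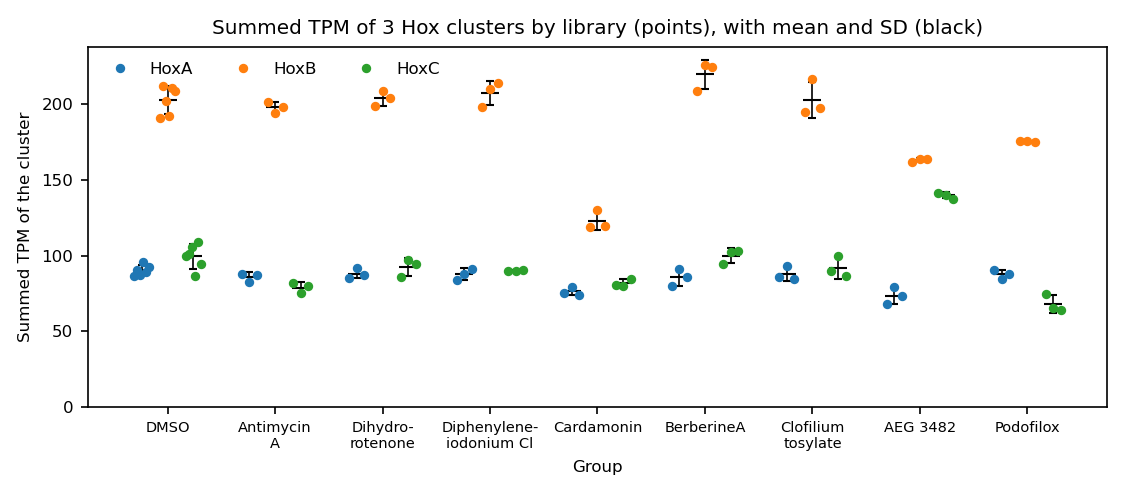
Summed TPM of the HoxA, HoxB and HoxC genes in every library, by group, with the mean and SD in black. HoxC is highest in AEG 3482 (137.6 to 141.5) and HoxB is lowest in Cardamonin (119 to 130).

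By position, the calls were counted in 3 bands of paralog groups and by cluster, and no difference between bands or clusters was tested. In AEG 3482, where 41.3% of all genes were higher and 26.8% lower, of 11 genes tested in groups 9 to 13, 4 were higher and 3 lower, of 13 in groups 4 to 8, 2 were higher and 7 lower, and of 3 in groups 1 to 3, 0 were higher and 2 lower. The HoxC calls were 4 higher and 2 lower, and the HoxA calls 0 higher and 6 lower. In Cardamonin (37.3% higher and 33% lower over all genes) groups 9 to 13 had 3 higher and 8 lower, groups 4 to 8 had 1 and 6, and groups 1 to 3 had 0 and 3. In Podofilox (26.2% higher and 20% lower) 6 of 9 HoxC genes were lower and 0 higher. Set against each other, Cardamonin and AEG 3482 differed in 15 of the 27 members (55.3% of all genes), AEG 3482 and Podofilox in 16 (60.3%) and Cardamonin and Podofilox in 14 (57.8%). Over all 28 pairs of compounds, 272 of 756 member contrasts passed (36.0%), against 38.7% of all gene contrasts.

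Hox proteins bind DNA together with the TALE homeodomain proteins of the Pbx, Meis and Pknox families. Of 9 such genes 8 were tested, and in AEG 3482 3 were higher and 1 lower, in Cardamonin 2 and 1, in Antimycin A 1 and 2 and in Podofilox 1 and 2. Over all genes 41.3% were higher and 26.8% lower in AEG 3482, 37.3% and 33% in Cardamonin, 21.8% and 15.5% in Antimycin A and 26.2% and 20% in Podofilox. The other 4 compounds had 0 or 1 call each way, where 4.95% to 14% of all genes were higher and 9.16% to 12.5% lower. The median difference of the 8 was 0.18 in AEG 3482 and 0.10 in Cardamonin, against 0.10 and 0.03 for all genes. Pknox1, at 10.3 ± 0.647 TPM in the 6 DMSO libraries, rose to 21.0 ± 0.465 TPM in AEG 3482 and 17.4 ± 0.998 TPM in Cardamonin (SD, n = 3 each; log2 differences 0.96 and 0.70, limma adjusted p = 1.01e-13 and 3.08e-11). Pbx2 was at 35.7 ± 1.61 TPM in DMSO and 60.4 ± 5.45 in AEG 3482 (0.74, limma adjusted p = 3.19e-10).

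Polycomb and Trithorax genes encode the proteins that hold Hox genes off or on. Of 28 Polycomb genes tested, 13 were higher and 5 lower in Cardamonin and 14 higher and 4 lower in AEG 3482, with medians of 0.12 and 0.15 against 0.03 and 0.10 for all genes. Over all genes 37.3% were higher and 33% lower in Cardamonin and 41.3% and 26.8% in AEG 3482, so the shares of higher calls were near the background. In Podofilox 9 were higher and 7 lower, in BerberineA 9 and 0, in Antimycin A 8 and 0, in Clofilium tosylate 5 and 2, in Diphenyleneiodonium Cl 7 and 0 and in Dihydrorotenone 0 and 1. The all-gene shares, higher and lower, were 26.2% and 20% in Podofilox, 12.6% and 9.16% in BerberineA, 21.8% and 15.5% in Antimycin A, 10.9% and 12.5% in Clofilium tosylate, 14% and 11.7% in Diphenyleneiodonium Cl and 4.95% and 9.43% in Dihydrorotenone. Scmh1, a Polycomb complex member, rose from 39.6 ± 2.04 TPM to 93.5 ± 3.69 in Cardamonin and 98.8 ± 5.34 in AEG 3482. Cbx2, a reader of the Polycomb mark, rose from 2.78 ± 0.283 to 8.39 ± 0.848 TPM in Cardamonin (SD, n = 6 and 3; limma adjusted p = 1.27e-13).

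The list for the Trithorax group and demethylases of the Polycomb mark held 18 genes and included Mllt3 and Dot1l. Of these 18, 8 were higher and 2 lower in Cardamonin and 8 higher and 0 lower in AEG 3482. In Podofilox 6 were higher and 1 lower. The medians were 0.15, 0.18 and 0.13, against 0.03, 0.10 and 0.04 for all genes. The share of higher calls was near the all-gene shares of 37.3%, 41.3% and 26.2%. The all-gene shares of lower calls were 33%, 26.8% and 20%. None of the other 5 had a lower gene, and 3 were higher in Clofilium tosylate, 3 in Antimycin A, 2 in Diphenyleneiodonium Cl, 2 in BerberineA and 1 in Dihydrorotenone. The all-gene shares of higher calls in these 5, in the same order, were 10.9%, 21.8%, 14%, 12.6% and 4.95%. Those of lower calls were 9.16% to 15.5%. Mllt3, a subunit of the super elongation complex, fell from 28.9 ± 3.62 to 13.3 ± 0.345 TPM in Cardamonin and rose to 54.5 ± 0.568 TPM in Antimycin A (SD, n = 6 and 3 each; limma adjusted p = 1.25e-12 and 3.72e-10). Dot1l, the methyltransferase of histone H3 lysine 79, rose to 19.9 ± 1.58 TPM in AEG 3482 from 9.56 ± 0.585.

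Retinoic acid is a classical inducer of 3′ Hox genes. Of 18 genes of its pathway 11 were tested, and 2 were higher and 8 lower in Cardamonin (median −0.66), 1 and 7 in Podofilox (median −0.22) and 3 and 4 in AEG 3482 (median −0.17). Over all genes 37.3% were higher and 33% lower in Cardamonin (median 0.03), 26.2% and 20% in Podofilox (0.04) and 41.3% and 26.8% in AEG 3482 (0.10). In the other 5 compounds 0 to 2 were higher and 2 or 3 lower, where 4.95% to 21.8% of all genes were higher and 9.16% to 15.5% lower. Crabp1, a cytoplasmic retinoic acid binding protein, fell from 82.0 ± 12.2 TPM to 6.69 ± 1.83 in Cardamonin, a difference of −3.45 (limma adjusted p = 1.46e-18), and to 30.8 ± 1.99 in Podofilox (−1.37, limma adjusted p = 8.2e-10). Crabp2 fell from 26.4 ± 2.3 to 9.65 ± 1.01 TPM in AEG 3482 (limma adjusted p = 6.33e-15), where Dhrs3, which lowers retinaldehyde, fell from 18.4 ± 2.44 to 7.21 ± 0.542 TPM.

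Other transcription factors also mark position in limb, trunk and skin. Of 38 such genes 24 were tested, and 4 were higher and 17 lower in Cardamonin (median −0.68), 4 and 13 in AEG 3482 (median −0.26), 3 and 12 in Podofilox (median −0.21) and 5 and 12 in Antimycin A (median −0.20). Over all genes the lower share was 33%, 26.8%, 20% and 15.5% in these 4 compounds and the median 0.03 to 0.10. In the rest the counts were 1 and 6 in Clofilium tosylate, 5 and 5 in Diphenyleneiodonium Cl, 5 and 4 in BerberineA and 0 and 2 in Dihydrorotenone. Among all genes, 4.95% to 14% were higher and 9.16% to 12.5% lower in these. Meox1, a homeobox gene of the somites, fell from 8.77 ± 0.831 TPM to 0.410 ± 0.307 in Cardamonin and 0.710 ± 0.194 in AEG 3482 (limma adjusted p = 1.5e-17 and 2.85e-16). Prrx2, a homeobox gene of connective tissue, was at 189 ± 19.5 TPM in DMSO and fell to 52.9 ± 10.1 in Cardamonin and 82.7 ± 11.5 in Podofilox. The fibroblast marker sum was also lower in Cardamonin, as given above, and its part in these differences was not tested. The ParaHox genes, the sister cluster of Hox, and the 2 Evx genes were near 0: of 8 listed none was tested and the highest DMSO mean was 0.0324 TPM, for Cdx1.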

How the data were processed

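Gene expression was measured by RNA-seq in 30 libraries. The authors deposited 1 table of TPM per gene and library. Reads were assigned with kallisto 0.43.1 and checked with FastQC, with mm10 as the build, per the submitters' processing notes, and the series text names tximport for gene values and DESeq2 for differences. Listed genes summed to 927024 to 937134 TPM per library. TPM carries no depth, which is unknown here, so no counting intervals are given and the number of libraries limits the precision. Of 29861 Ensembl identifiers, 29426 (98.5%) matched GENCODE M21.

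Groups came from the treatment labels. The series text counts 5 DMSO replicates, the labels name 6, and all 6 were used. The unit needs a test on a log scale, so limma 3.58.1 (R 4.3.3) was fitted to log2(TPM + 1) over all 30 libraries with 1 mean per group, an intensity trend and a filter of at least 1 TPM in at least 3 libraries (13644 genes), with Benjamini-Hochberg adjustment over all of them, within each of the 8 comparisons with DMSO and the 28 pairs of compounds. The script was tested on simulated data. Members, lists and markers were chosen with earlier results of these data known. All Hox genes could be named, but 1 low gene is counted in the sums and not reported singly here. Of each list, counts are given, with the 2 highest genes in DMSO and the 2 largest changes past the threshold in the compound spoken of open to naming. Alternatives were the pseudocount, the filter, scaling, a replicate block, no trend, protein-coding genes only, only the groups compared and each replicate left out. None of the 18 noncoding genes listed for the Hox clusters was found in the deposited table, so they were not used here.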

Additional observations from a re-analysis of the deposited data

Results flagged for a closer look

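Of 36 Hox genes with any spread among the 6 DMSO libraries, 2 had a library far from the other 5, by Dixon's ratio of gap to range at its 95% critical value, which chance passes in about 1 in 20 such groups. Hoxa7 was 7.40 TPM in DMSO replicate 3, the lowest of 6, with the nearest library at 8.67 TPM (ratio 0.675). Hoxa9 was 20.7 TPM in DMSO replicate 4, the highest of 6, with the nearest at 17.4 TPM (ratio 0.675).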

How the results depend on the processing

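Of 84 Hox calls against DMSO, 55 passed in every alternative, 29 were lost in at least 1 and 0 reversed. The count for Diphenyleneiodonium Cl (8) was 5 with the replicate block and 5 when only the groups compared were fitted. It was also 5 when genes needed a mean of 5 TPM or more, but that filter left only 18 Hox genes to test. All 62 calls that could be tested under that filter passed. With only the groups compared, Dihydrorotenone went from 3 to 0 and BerberineA from 6 to 2. This fit has fewer samples. Leaving out 1 replicate at a time gave 7 to 10 calls for Antimycin A, 0 to 2 for Dihydrorotenone, 5 to 9 for Diphenyleneiodonium Cl, 20 to 21 for Cardamonin, 3 to 6 for BerberineA, 4 to 7 for Clofilium tosylate, 17 to 19 for AEG 3482, 9 to 14 for Podofilox, 23 to 25 for the F test and 255 to 272 over the 28 pairs (272 with all libraries). Deviations from the group means had a median correlation r of 0.00799 between same-numbered libraries of different groups (108 pairs, 4 of them over 0.1). Between differently numbered libraries the median r was 0.000813 (288 pairs, 8 of them over 0.1). The main fit used no pairing by number, and whether same-numbered libraries shared their handling was not tested. With the replicate number as a block, the counts were Antimycin A 10, Dihydrorotenone 3, Cardamonin 19, BerberineA 4, Clofilium tosylate 6, AEG 3482 17 and Podofilox 12. With it, 12 of the 84 calls did not pass, Hoxd8 in Diphenyleneiodonium Cl and Hoxc5 in Cardamonin among them. Median-ratio scaling moved the AEG 3482 count from 18 to 24 (6 higher, 18 lower), with the median of all genes at 0.00 in place of 0.10.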
